A study of Mus musculus with 384 samples.

Results

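The 10 genes described here encode subunits of the AMPA and NMDA receptors, the ligand-gated channels that carry fast glutamatergic input to midbrain dopamine (DA) neurons. They were taken by their symbols from 26749 genes with at least 1 read, and all 10 had reads: *Gria1*, *Gria2*, *Gria3* and *Gria4* for AMPA receptors and *Grin1*, *Grin2a*, *Grin2b*, *Grin2c*, *Grin2d* and *Grin3a* for NMDA receptors. Expression was measured by RNA-sequencing of single tdTomato+ cells from 8 DATIRESCre;Ai9 mice on a C57BL6/J background, in which Cre made from the *Slc6a3* (dopamine transporter) locus switches on the tdTomato reporter for good, so that the labelled lineage includes cells with little *Th*. The mice were 3 females aged 25–36 days and 5 males aged 24–28 days, all of this genotype and untreated, and each mouse was loaded as its own C1 run, so mouse and run cannot be told apart. The tissue was dissociated midbrain that included hypothalamus.

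Of 384 cells, 209 had at least 500000 reads on genes and were used, with 500672–1544810 reads each, 12–45 cells per mouse and 384 distinct barcodes in the whole table. The cells were split by reads of *Aldh1a7*, an aldehyde dehydrogenase gene listed here with nigral-type markers (74 positive and 135 negative cells). They were also split by *Neurod6*, a transcription factor of a ventral tegmental subset (49 positive and 160 negative). The last split was by *Th* (tyrosine hydroxylase, the rate-limiting enzyme of DA synthesis, with 28 *Th*-poor and 181 *Th*-rich cells). Positive means at least 10 reads in a cell, and *Th*-poor means under 1000 counts per 1000000 reads on genes (CPM). Of the *Aldh1a7*-positive cells, 18 also had *Neurod6*, which the paper did not find in the substantia nigra. *Aldh1a7* status is therefore not read as a nigral location. The nigral-type markers summed to 5276–11658 CPM in *Aldh1a7*-positive and 149–1945 CPM in negative cells of a mouse. They were at 4207–8562 CPM in *Neurod6*-positive and 104–4916 CPM in negative cells. The label of DA neuron was checked with 8 genes of DA identity, whose summed level per mouse was 13727–17750 CPM in *Th*-rich and 1314–2941 CPM in *Th*-poor cells. *Th*, which defines these classes, is one of the 8, and *Slc6a3* alone had a mean of 3374 CPM in *Th*-rich and 421 CPM in *Th*-poor cells. Markers of glial or endothelial cells summed to 1000 CPM or more in 7 of the 209 cells, 6 of them *Th*-poor. Those 7 cells, with astrocyte or oligodendrocyte genes, held a median of 3 subunits against 6 in the other 202, and the *Grin3a* differences by *Aldh1a7* and *Th* are also given without them.

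AMPA receptors are tetramers that open on binding glutamate, and the presence of GluA2, encoded by *Gria2*, sets whether they pass calcium. NMDA receptors need the GluN1 subunit from *Grin1* together with GluN2 subunits from *Grin2a* to *Grin2d*, which set their kinetics and their block by magnesium, while GluN3A from *Grin3a* gives receptors with less calcium entry and weaker magnesium block. In DA neurons these receptors drive burst firing and are the substrate of drug-evoked plasticity, in which the share of AMPA receptors without GluA2 can rise.

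The pore of an AMPA receptor is lined by a glutamine codon that in *Gria2* RNA is edited to arginine, and these stretches show the codon as the genome encodes it. The sequences are 30 bases of the GENCODE transcripts of GRCm38 (the build the reads were aligned to), with the edited or corresponding codon in capitals. They lie at chr11:57243082-57243111 (plus strand) for *Gria1*, chr3:80706896-80706925 (minus) for *Gria2*, chrX:41610253-41610282 (plus) for *Gria3* and chr9:4464122-4464151 (minus) for *Gria4*, each inside a coding exon.
Gria1: ggggccttcatgCAGcaaggatgtgacatt
Gria2: ggtgcctttatgCAGcaaggatgcgatatt
Gria3: ggtgcttttatgCAGcaaggatgtgatatt
Gria4: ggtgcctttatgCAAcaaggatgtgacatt
The codon was CAG in 3 of the 4 genes, and the windows differed from that of *Gria2* at 4 bases in *Gria1*, 2 in *Gria3* and 3 in *Gria4*. The counts do not read this site, so nothing on its editing or on the flip and flop exons is given here.

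The NMDA subunits share a stretch of the third membrane segment that forms the gate of the channel, and it is shown for 4 of them because *Grin3a*, which the comparisons below turn on, departs most from *Grin1* among these. Capitals mark bases that differ from *Grin1*. The 30 bases lie in a coding exon on the minus strand at chr2:25297196-25297225 (*Grin1*), chr16:9653444-9653473 (*Grin2a*), chr11:115253746-115253775 (*Grin2c*) and chr4:49770467-49770496 (*Grin3a*).
Grin1: tcctacactgccaacctggcagccttcctg
Grin2a: AGTtacacAgccaacctggcTgccttcAtg
Grin2c: AGctacacGgccaaTctggcagccttcAtg
Grin3a: AcAtacacAgcGaacTtggcTgcTGtcAtg
The number of differing bases was 9 in *Grin3a*, 6 in *Grin2a* and 5 in *Grin2c*.

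In the mean over mice, *Gria2* was the most abundant subunit per length and *Grin2b* the most abundant NMDA subunit, but not in every mouse. Per exon length, *Gria1* was above *Gria2* in mouse 2 (42.4 against 33.4) and *Gria3* above *Gria2* in mouse 1 (49.3 against 48.8). *Grin1* was above *Grin2b* in mice 1 and 5. These exceptions rest on the exon length. In CPM, *Gria2* was above *Gria1* in mouse 2 (350 against 250) and above *Gria3* in mouse 1 (512 against 271). The coding lengths of *Gria2*, *Gria1* and *Gria3* are close, at 2649, 2721 and 2664 bases. *Grin2b* was above *Grin1* in mice 1 (238 against 59.8 CPM) and 5 (353 against 74.7 CPM), with coding lengths of 4446 and 2877 bases. Levels were compared between genes in reads per kilobase of all annotated exons and 1000000 reads (RPKM), on sums over the cells of each mouse. *Gria2* was at 46.5 ± 9.60 RPKM (SD, n = 8 mice, range 32.2–60.2), *Gria1* at 36.0 ± 6.57 and *Gria3* at 31.3 ± 9.17. *Grin2b* followed at 16.9 ± 6.58, *Gria4* at 15.3 ± 3.90, the obligatory subunit gene *Grin1* at 10.7 ± 4.02 and *Grin3a* at 9.98 ± 3.28. The remaining NMDA genes were low in these cells, with *Grin2a* at 2.14 ± 1.23, *Grin2d* at 1.11 ± 0.599 and *Grin2c* at 0.334 ± 0.359 RPKM.

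**Figure D1:**
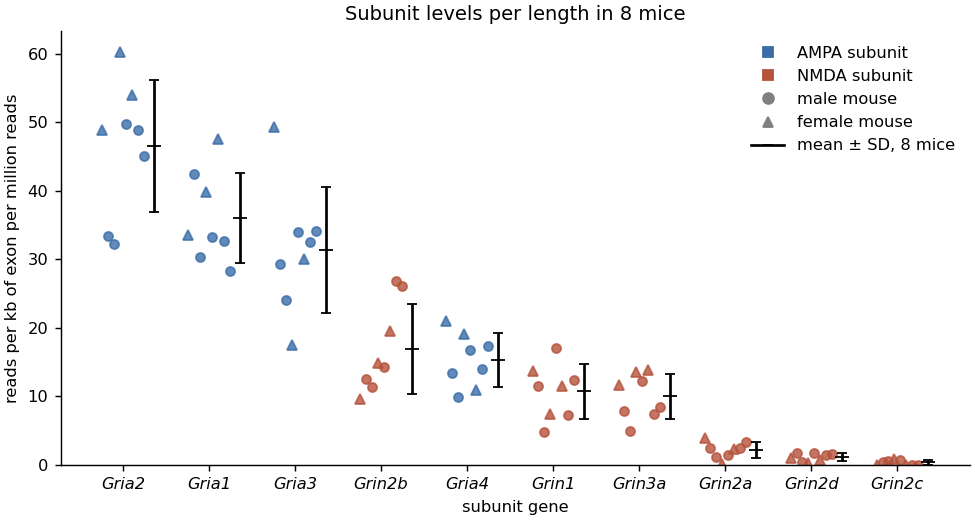
Level of each subunit gene (y axis, RPKM) in each of 8 mice, by gene (x axis, in order of the mean), with circles for males, triangles for females and bars for the mean ± SD. *Gria2* lies highest with a mean of 46.5, and *Grin2a*, *Grin2d* and *Grin2c* lie lowest with means of 2.14, 1.11 and 0.334.

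Of the 9 neighboring pairs in this order, 2 per exon length and 6 per coding length differed beyond the spread between mice. Per exon length, the 2 pairs were separated by a two-sided exact permutation of signs across the 8 mice, adjusted over the pairs. *Gria3* lay above *Grin2b* in 8 of 8 mice, by 0.93 ± 0.71 on the log2 scale (exact p = 0.0078, adjusted p = 0.035), and *Grin3a* lay above *Grin2a* in 8 of 8, by 2.62 ± 1.87 (exact p = 0.0078, adjusted p = 0.035). Without mouse 2 both kept an adjusted p of 0.047 in this exact test, and without any other single mouse it was 0.070, as fewer mice raise the smallest p possible. *Gria2* lay above *Gria1* in 7 of 8 mice by 0.36 ± 0.36 (exact permutation, adjusted p = 0.088, or 0.047 without mouse 2), and *Grin2b* and *Gria4* differed by 0.093 ± 0.69 (adjusted p = 0.71). With the median over the cells of a mouse in place of the sum, *Gria3* over *Grin2b* was 0.33 and no longer separated (exact permutation, adjusted p = 0.25). *Gria2* over *Gria1* and *Grin1* over *Grin3a* were then separated, at 0.81 and 2.42 (exact permutation, adjusted p = 0.035 for both). The order also depends on the length used, because the exons of *Grin2b* span 24794 bases, of which 4446 code for protein, against 5498 and 2664 for *Gria3*. Per coding length, a choice made after the values were seen, *Grin2b* was above *Gria3* and *Grin3a* above *Grin1*, by 0.50 and 0.46 on the log2 scale. Coverage also fell toward the 5-prime end, with a median ratio of 5-prime to 3-prime coverage of 0.338 over 367 cells that have a value.

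As shares of all AMPA subunit reads per length, *Gria2* made up 35.9% ± 4.77, *Gria1* 28.1% ± 5.11, *Gria3* 24.2% ± 5.58 and *Gria4* 11.8% ± 2.20 (n = 8 mice). Each share was between 7.67% and 44.1% in every mouse, so no mouse lacked any of the 4 AMPA genes. Of the reads per length of the 4 *Grin2* genes, *Grin2b* took 81.5% ± 8.64 (range 65.9–92.3%). *Grin2a*, the subunit gene that replaces *Grin2b* in many maturing forebrain synapses, took 10.9% ± 7.63 (range 0.634–27.2%), and *Grin2d* took 5.54% ± 3.15. The summed AMPA level was 3.24 ± 0.603 times the summed NMDA level, between 2.41 and 4.18 in the 8 mice. These shares and this ratio are per exon length and shift with the length used. *Gria2* has 10486 exon bases, of which 2649 code for protein, against 5893 and 2721 for *Gria1*. No shares per coding length are given here.

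The spread between mice differed among the members. *Gria1* and *Gria2* had the smallest, with an SD of 18.3% and 20.6% of the mean, and *Grin2a*, *Grin2d* and *Grin2c* the largest, at 57.2%, 53.8% and 108%. *Grin2a* was at 1.53 CPM in mouse 4 and at 17.2–59.4 CPM in the other mice. *Grin2c* was at 2.37–4.24 CPM in mice 2, 3, 4 and 5 and at 0–0.107 CPM in the other 4, where it had at most 2 reads. *Grin2b* was highest in mice 7 and 8, at 663 and 648 CPM against 238–483 CPM in the others, and both were 24-day-old males.

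Cell by cell, *Gria2* and *Grin2b* were detected most often. At least 10 reads of *Gria2* were counted in 206 of 209 cells, which is 98.6% (exact 95% binomial interval 95.9–99.7%), and of *Grin2b* in 204 cells or 97.6% (94.5–99.2%). *Gria1* reached 10 reads in 87.1% of cells, *Gria4* in 84.7%, *Gria3* in 83.3% and *Grin1* in 70.3%. The intervals cover counting error only: reads carried no molecular identifiers, and cells of a mouse are not independent. *Grin3a* was split between cells: 79 had no read, 97 had at least 10 (46.4%, interval 39.5–53.4%, and 31.1–64.7% in single mice), its median was 7.71 CPM and its highest value 778 CPM. *Grin2a* reached 10 reads in 34.9% of cells, *Grin2d* in 17.2% and *Grin2c* in 4.78%.

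All 4 AMPA subunits reached 10 reads in 132 cells (63.2%) and 3 of them in 62 cells. One cell had an AMPA subunit at this level without *Gria2*, and *Gria2* was the highest AMPA gene per length in 95 cells, *Gria1* in 51, *Gria3* in 50 and *Gria4* in 13. *Grin1* occurred together with a *Grin2* gene in 147 cells, which were all the cells with *Grin1*. Every one of the 97 cells with *Grin3a* and of the 73 cells with *Grin2a* also had *Grin2b*, and 74 of the 97 had *Grin1*. A cell below 10 reads may still express a gene: with 1 read as the limit, *Grin1* was found in 93.8% of cells and *Grin3a* in 62.2%, and after thinning each cell to 500000 reads the shares at 10 reads were 59.3% and 43.5%.

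**Figure D2:**
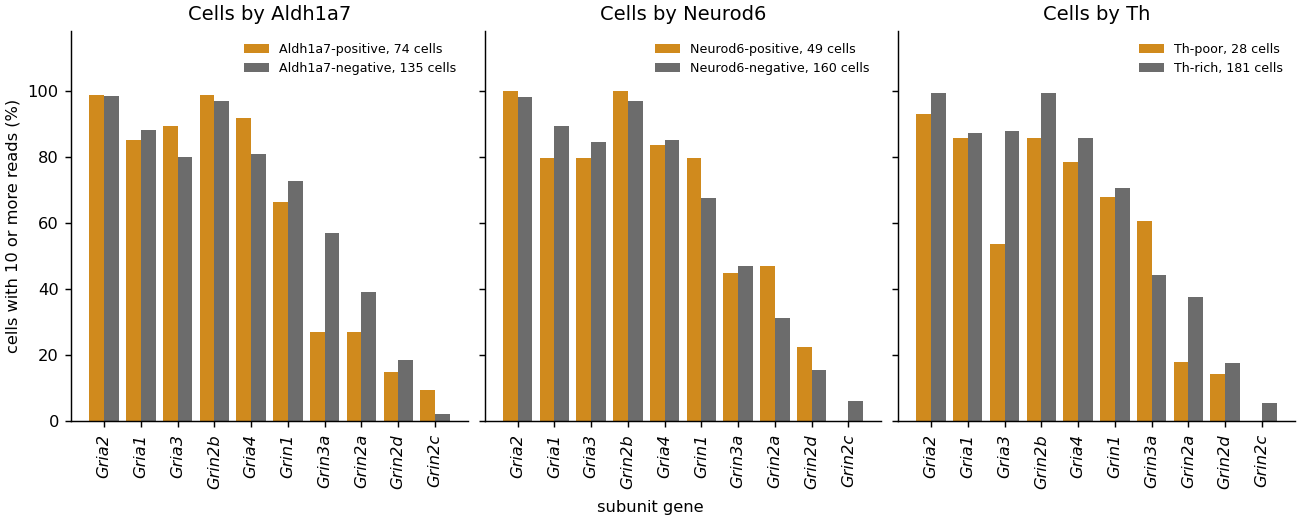
Percent of cells with 10 or more reads of each subunit gene (y axis) by gene (x axis), for cells split by *Aldh1a7* (left), *Neurod6* (middle) and *Th* (right), with the number of cells per class in the key. *Grin3a* reached 27.0% of *Aldh1a7*-positive and 57.0% of *Aldh1a7*-negative cells, and *Gria3* 53.6% of *Th*-poor and 87.8% of *Th*-rich cells.

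*Grin3a* and *Gria1* lay lower in *Aldh1a7*-positive than in *Aldh1a7*-negative cells of the same mouse, in 7 of 7 mice for each, but neither passed the test across all genes. *Aldh1a7* itself was at 97.8–713.7 CPM in positive and 0–2.67 CPM in negative sums. Reads were summed per mouse and class in the 7 mice that had 3 or more cells in both classes. A quasi-likelihood test in edgeR with Benjamini-Hochberg adjustment called 0.407% of 12781 genes (52, or 29 with the mouse as a block). None of the 9 members tested was called, while 1402 of all genes had an unadjusted p under 0.05 and DESeq2 called 554. In such sums, fewer cells with a gene and less of it per cell cannot be told apart. The share of all genes with the same direction in every mouse, or with ranges that do not overlap, is not given here. The directions and ranges of the members are therefore a description.

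*Grin3a* showed the largest difference among the members. It was at 0–43.4 CPM (median 11.1) in *Aldh1a7*-positive sums and at 58.7–161 CPM (median 85.9) in negative sums, and the ranges did not overlap. Mouse 7 had the highest positive and the lowest negative value, 43.4 against 58.7 CPM, and mouse 4 had no read in 4 positive cells. The log2 fold change was -2.74 ± 0.59 (SE; edgeR, adjusted p = 0.056, the gene ranked 58 by p), and -3.14 with the mouse as a block (adjusted p = 0.097). The adjusted p was 0.00054 with DESeq2, 0.034 after thinning to 500000 reads, 0.22 within *Th*-rich cells, where the fold change was -2.35, and 0.059 without the cells with glial markers. With 1 read of *Aldh1a7* enough for a positive cell, the fold change was -1.81 (adjusted p = 0.27), and *Grin3a* was called in 7 of 19 alternatives, among them no scaling (0.047), cells from 100000 reads (0.0099) and a limit of 50 reads (0.048). *Grin3a* reached 10 reads in 20 of 74 positive cells and 77 of 135 negative cells, and after thinning in 23.0% and 54.8%.

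Among the AMPA genes, *Gria1* was at 38.5–185 CPM (median 113) in *Aldh1a7*-positive and 190–321 CPM (median 224) in negative sums, also without overlap. Its log2 fold change was -0.92 ± 0.29 (edgeR with Benjamini-Hochberg adjustment, adjusted p = 0.21). Over 19 alternatives it was between -1.10 and -0.54, the last with a limit of 50 reads of *Aldh1a7*, and none called it. *Gria3* was at 106 ± 32.8 against 181 ± 53.1 CPM (log2 fold change -0.61, adjusted p = 0.34) and *Gria2* at 403 ± 90.2 against 516.1 ± 136 CPM (-0.21, adjusted p = 0.73). *Gria4* was at 87.9 ± 19.6 and 92.3 ± 24.1 CPM, with a fold change of 0.076 that was -0.077 without TMM scaling. For the NMDA genes *Grin1*, *Grin2a*, *Grin2b* and *Grin2d*, the fold changes were between -0.71 and 0.0018 on the log2 scale, with adjusted p from 0.75 to 0.999, and *Grin2c* had too few reads to be tested. *Grin2a*, at -0.0089, was -0.67 with the mouse as a block and -0.79 with a limit of 50 reads of *Aldh1a7*, not called in either.

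Non-neuronal and non-dopaminergic markers differed between the same classes. In *Aldh1a7*-negative sums the 3 GABA neuron markers summed to 2.20–1331 CPM and the glutamate neuron markers to 62.1–475 CPM, against 0.787–255 and 2.098–213 CPM in positive sums. Oligodendrocyte markers summed to 34.0–5262 CPM in negative and 0–50.2 CPM in positive sums with *Mog* at 0 in both, and astrocyte markers to 0–61.1 and 0–1.11 CPM with *Gfap* at 0 in the positive sums. Without the cells with glial markers the fold changes of *Grin3a* and *Gria1* were -2.76 and -0.95, and the part of the neuronal markers was not tested.

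**Figure D3:**
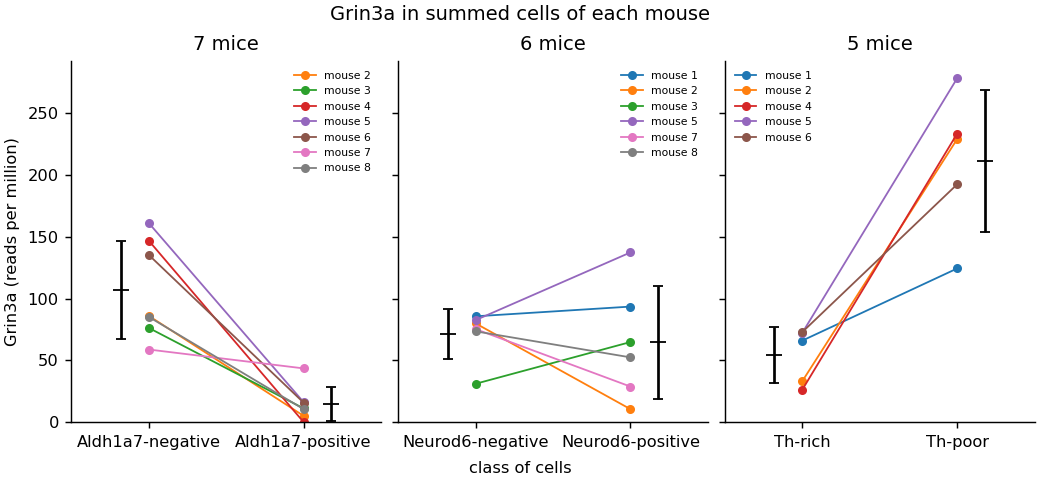
*Grin3a* level (y axis, CPM) in the summed cells of each class (x axis), with a line per mouse and bars for the mean ± SD over mice. All 7 lines fall from *Aldh1a7*-negative to *Aldh1a7*-positive cells, 3 of 6 rise from *Neurod6*-negative to *Neurod6*-positive cells, and all 5 rise from *Th*-rich to *Th*-poor cells.

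*Neurod6*-positive cells did not differ from *Neurod6*-negative cells in any member past the threshold. In 6 mice, edgeR with Benjamini-Hochberg adjustment called 0.0555% of 12605 genes (7 genes; 1 with the mouse as a block), DESeq2 called 338, and 781 had an unadjusted p under 0.05. *Neurod6* was at 61.8–245 CPM in positive and 0–0.383 CPM in negative sums. *Grin2b* was at 229–820 CPM (median 541) in positive and 240–547 CPM (median 279) in negative sums and was higher in 5 of 6 mice, with a log2 fold change of 0.68 ± 0.32 (edgeR, adjusted p = 0.81). *Gria1* and *Gria3* went the other way in 5 of 6 mice each, at 126 ± 61.5 against 242 ± 54.4 CPM and 121 ± 45.6 against 214 ± 63.4 CPM, with log2 fold changes of -0.87 and -0.76 (edgeR, adjusted p = 0.70 and 0.60). The ranges of all 3 genes overlapped between the classes.

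*Grin3a* was at 10.5–137 CPM (median 58.6) in *Neurod6*-positive and 31.0–85.6 CPM (median 77.6) in negative sums, higher in 3 mice and lower in the other 3. The log2 fold change was -0.073 ± 0.47 (edgeR, adjusted p = 0.998). Against *Aldh1a7*-positive cells without *Neurod6* in place of all negative cells it was 2.96 (adjusted p = 0.49). *Grin2c*, which was left out of the test for low reads, reached 10 reads in 0 of 49 *Neurod6*-positive cells, which allows a share of up to 6.12% (3 counts of 49) by counting error alone, and in 10 of 160 negative cells. Mice 1, 7 and 8, where *Grin2c* had 0–2 reads in all cells, supplied 3, 10 and 10 of the positive cells.

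*Grin3a* was higher in *Th*-poor than in *Th*-rich cells. In the main fits, which held no block for the mouse, it was the only member called in any of the 4 comparisons. *Th* was at 2.58–254 CPM in *Th*-poor and 4930–9957 CPM in *Th*-rich sums of the 5 mice (3 of them female) in which both classes had 3 or more cells. In edgeR with Benjamini-Hochberg adjustment 0.424% of 11322 genes were called (48 genes; 10 with the mouse as a block), against 1 of the 9 members tested. In mice 1, 2, 4, 5 and 6 *Grin3a* was at 124, 229, 233, 278 and 192 CPM in *Th*-poor cells and at 66.0, 33.2, 26.3, 72.3 and 72.9 CPM in *Th*-rich cells. Every *Th*-poor value lay above every *Th*-rich value, with mouse 1 the closest pair. The share of all genes with such a separation is not given here. Nigral-type DA markers moved with this difference, with sums of 16.4–252 CPM in *Th*-poor and 1914–5762 CPM in *Th*-rich cells, and all 74 *Aldh1a7*-positive cells were *Th*-rich. Their part in it was not tested.

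The *Grin3a* log2 fold change between *Th*-poor and *Th*-rich cells was 2.02 ± 0.36 (edgeR, adjusted p = 0.036), at rank 32 of all genes by p. With the mouse as a block it was 2.08 and not called (adjusted p = 0.14). Leaving out mouse 2, 4, 5 or 6 also ended the call (adjusted p 0.11–0.14, log2 fold change 1.83–2.19), as did thinning to 500000 reads (1.95, adjusted p = 0.077). It was also not called without a filter on low counts (adjusted p = 0.10), with mice of at least 1 cell per class (1.60, 0.37), with cells from 100000 reads (1.51, 0.27) or with a limit of 100 CPM of *Th* (1.72, 0.77). In all, 6 of 16 alternatives called it, and its sign was the same in every one. Without the cells with glial markers it was 2.18 (adjusted p = 0.017). The *Th*-poor sums held 4–7 cells per mouse, and 17 of 28 had at least 10 reads of *Grin3a* against 80 of 181 *Th*-rich cells.

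No other member passed the test between *Th*-poor and *Th*-rich cells. *Gria1* was at 165, 577, 343, 328 and 505.4 CPM in *Th*-poor and 216, 201, 172, 182 and 201 CPM in *Th*-rich cells of mice 1, 2, 4, 5 and 6, higher in 4 of 5 (log2 fold change 1.04 ± 0.32, edgeR, adjusted p = 0.28, and 0.30 with a limit of 100 CPM of *Th*, adjusted p = 0.99). *Gria3* was lower in *Th*-poor cells in 5 of 5 mice, at 121 ± 76.6 against 198 ± 60.7 CPM (-0.65, adjusted p = 0.77), and the ranges overlapped. Over 16 alternatives the *Gria3* fold change was between -1.75 (a limit of 100 CPM of *Th*) and 0.12 (3000 CPM), with the sign turned in 1. *Grin2a* was at 5.56 ± 5.09 CPM in *Th*-poor and 40.1 ± 33.9 CPM in *Th*-rich cells, lower in 4 of 5 mice (-2.81 ± 1.37, edgeR, adjusted p = 0.56). The *Grin2a* fold change was -0.38 with cells from 100000 reads and -1.07 with a limit of 3000 CPM of *Th*. *Gria2*, *Gria4*, *Grin1*, *Grin2b* and *Grin2d* had fold changes between -0.29 and 0.70 on the log2 scale and adjusted p from 0.66 to 0.97, and *Grin2c* was not tested.

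**Figure D4:**
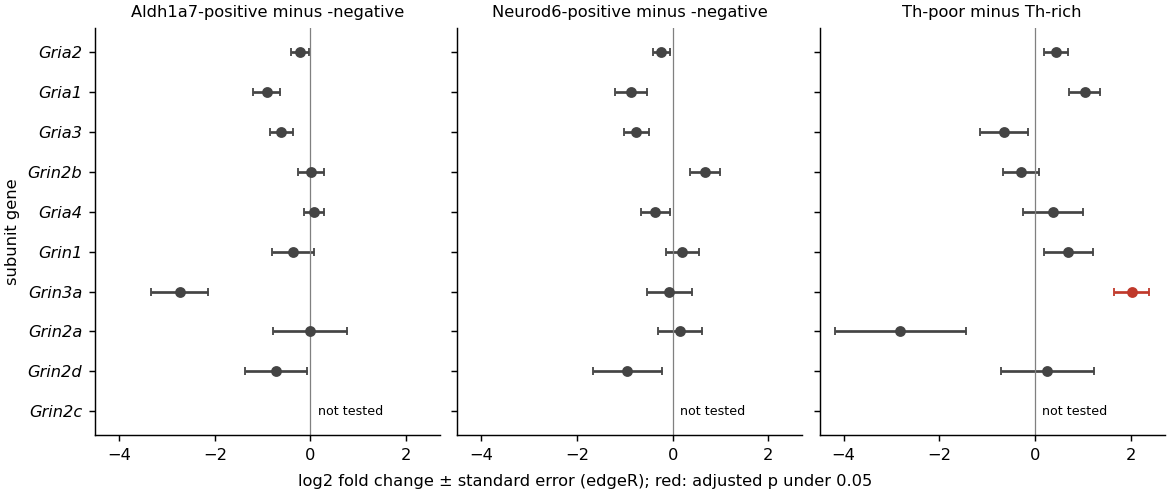
Fold change of each subunit gene (x axis, log2 scale, with its standard error from edgeR) by gene (y axis) in the comparisons by *Aldh1a7*, *Neurod6* and *Th*, with red for adjusted p under 0.05. *Grin3a* lies at -2.74, -0.073 and 2.02 in the 3 panels, and only the last is red.

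The *Th*-poor cells were also set out, as a description over pooled cells, by *Slc17a6*, a vesicular glutamate transporter gene, and *Gad1*. Of 28 cells, 19 had at least 10 reads of *Slc17a6* without *Gad1* (the gene of a GABA-making enzyme), 3 had *Gad1* alone, 1 had both and 5 had neither. *Grin3a* reached 10 reads in 16 of the 19, at a median of 255 CPM (quartiles 82.0–412), in 1 of the 3 and in neither of the other groups. *Gria4* ran the other way in these few cells, with a median of 423 CPM in the 3 cells with *Gad1* alone and 42.2 CPM in the 19. The 5 cells with neither gene were all among the 7 with glial markers, and a single one of them reached 10 reads of *Grin2b*. *Th*-poor sums held 142–1485 CPM of glutamate neuron markers and 1.59–1473 CPM of GABA neuron markers, against 113–182 and 2.78–711.3 CPM in *Th*-rich sums, and astrocyte markers reached 1537 CPM in *Th*-poor sums with a median of 0. The part of these cell types in the difference of *Grin3a* was not tested beyond the values without glial markers given above.

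Among *Th*-rich cells, levels were also set out for the 4 combinations of *Aldh1a7* and *Neurod6*, as a description. *Grin3a* was lowest in the 56 cells with *Aldh1a7* alone, with 8.20 ± 7.10 CPM over 6 mice, and was at 28.1 ± 24.0 CPM over 4 mice in the 18 cells with both genes. It was at 75.8 ± 53.9 CPM over 6 mice in the 31 cells with *Neurod6* alone and at 82.6 ± 30.1 CPM over 8 mice in the 76 cells with neither. *Grin2b* was set out differently, at 554 ± 244 and 616 ± 293 CPM in the classes with *Neurod6* alone and with both, and at 316 ± 83.6 and 404 ± 134 CPM with *Aldh1a7* alone and with neither. The classes were averaged over different mice, and mice 7 and 8, the highest in *Grin2b*, supplied 10 *Neurod6*-positive cells each. *Gria1* was highest in the cells with neither, at 257 ± 36.1 CPM, against 94.5–152 CPM in the other 3 classes.

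Ratios between subunits were compared within mice, on log2 ratios of summed reads. For each of the 3 comparisons 6 ratios were tested by exact permutation of their signs (two-sided), with adjustment over all 18. None passed at an adjusted p under 0.05, and 1 had an unadjusted exact p under 0.05. The smallest p this test can give is 0.0156 with 7 mice, 0.031 with 6 and 0.0625 with 5, so a single ratio at its smallest p could not pass after adjustment in any comparison, and no ratio could pass by *Th*.

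The ratio of *Grin2d* to *Grin2b*, a GluN2 subunit of slow decay against the main one, was lower in *Neurod6*-positive cells in 6 of 6 mice. The log2 ratio was -7.16 ± 1.38 in positive and -5.22 ± 0.862 in negative cells, a difference of -1.94 ± 1.22 (exact permutation p = 0.031, the smallest possible with 6 mice, adjusted p = 0.28). It rests on few reads, as *Grin2d* had 4–112 reads in the positive sums. By cells *Grin2d* ran the other way, reaching 10 reads in 22.4% of *Neurod6*-positive and 15.6% of negative cells. *Gria1* over *Gria2* was lower in *Aldh1a7*-positive cells in 5 of 7 mice (-0.86 ± 1.08, exact p = 0.063, adjusted p = 0.28) and in *Neurod6*-positive cells in 5 of 6 (-0.82 ± 0.96, exact p = 0.094, adjusted p = 0.28). *Gria3* over *Gria2* was lower in *Th*-poor cells in 5 of 5 (-1.39 ± 1.49, exact p = 0.063). *Grin2a* over *Grin2b*, the ratio most often followed in synapse maturation, differed by -0.88 ± 1.58, -0.41 ± 1.06 and -1.69 ± 4.40 in the comparisons by *Aldh1a7*, *Neurod6* and *Th*, each below its own spread between mice.

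By the sex in the sample labels (the design text of the series gives other numbers of females and males), no member was called in 3 females against 5 males, where edgeR with Benjamini-Hochberg adjustment called 0.0322% of 15528 genes (5 genes), 1261 had an unadjusted p under 0.05 and DESeq2 called 318. *Grin3a* was at 87.0, 102 and 104 CPM in the females and 36.8–91.5 CPM in the males (log2 fold change of males over females -0.67 ± 0.26, edgeR, adjusted p = 0.55). *Grin2d* was at 4.56 ± 2.36 CPM in females and 9.12 ± 3.91 CPM in males (1.01 ± 0.68, adjusted p = 0.75). The females contributed 15 of the 28 *Th*-poor cells and 8 of the 74 *Aldh1a7*-positive cells, and within *Th*-rich cells the *Grin3a* fold change was -0.15. Sex and age are partly confounded, as 2 of the 3 females were older than every male, and each mouse is also its own run.

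Genes around the receptors were read from lists of their partners. Of 15 AMPA receptor auxiliary and assembly genes tested, none was called in the 4 comparisons. Their median log2 fold change was -0.75 by *Aldh1a7* (all genes 0.0014), -0.11 by *Neurod6* (0.00066), 0.35 by *Th* (0.0996) and -0.062 by sex (0.021). Among them *Gsg1l* had a positive fold change with *Aldh1a7* of 1.54 (edgeR, adjusted p = 0.32), beside *Cacng3* at -1.74 and *Shisa6* at -3.05 (adjusted p = 0.37 and 0.22). None of the kainate and delta receptor genes (8 or 9 tested), the postsynaptic scaffold and trafficking genes (26 or 27) or the 3 RNA editing enzymes was called either. *Adarb1*, the enzyme that edits the *Gria2* codon shown above, was at 33.2 ± 6.25 CPM over 8 mice, with log2 fold changes of -0.27, -0.26 and -0.37 in the comparisons by *Aldh1a7*, *Neurod6* and *Th* (edgeR, adjusted p 0.80, 0.998 and 0.93).

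Of 6 metabotropic glutamate receptor genes tested, 1 was called in 1 comparison. *Grm8*, an inhibitory receptor of the presynaptic kind, had 0 reads in the *Aldh1a7*-positive cells of all 7 mice and 33–684 reads per mouse, or 2.54–63.7 CPM, in *Aldh1a7*-negative cells. Against a floor of 3 reads over the positive cells this was at least 514-fold lower over the pooled mice, by counting error only. The gene passed the filter on low counts only through the negative cells, so its call is given as a description. In edgeR it was not called with the mouse as a block (adjusted p = 0.070). The size depends on the limit for status: with 1 read of *Aldh1a7* enough for a positive cell the log2 fold change was -3.18 (edgeR, adjusted p = 0.29). *Grm5*, which couples to calcium release and reached 10 reads in 82.3% of cells, had a level of 101 ± 30.2 CPM.

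Over the 209 cells, the subunits were only weakly related to each other. The strongest of the 45 pairs was *Gria2* with *Grin3a*, at a Spearman rho of 0.35 on log2(CPM + 1) and 0.31 after the mean of each mouse was removed. *Gria1* with *Gria2* followed at 0.27, *Gria2* with *Grin1* at 0.24, *Gria1* with *Grin3a* at 0.24 and *Grin2a* with *Grin2b* at 0.23 (0.15 within mice). *Grin3a* and *Grin2c* ran opposite at -0.23, but *Grin2c* had no read in 171 cells. These are descriptions over cells that share mice, runs and differences in depth.

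**Figure D5:**
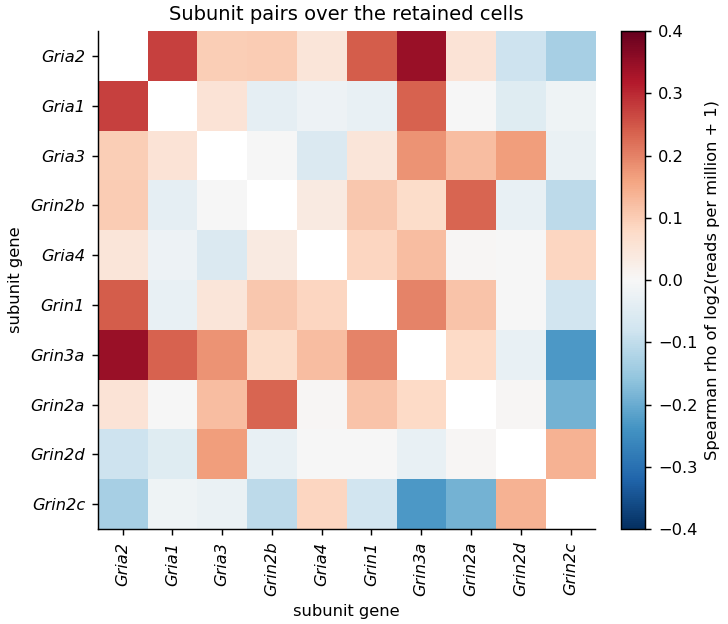
Spearman rho over 209 cells (color scale, from log2(CPM + 1)) for each pair of subunit genes (both axes, in order of level per length). *Gria2* with *Grin3a* is the darkest red at 0.35 and *Grin2c* with *Grin3a* the darkest blue at -0.23.

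The genes most like each of the 6 members with at least 10 reads in 50% of the cells or more were sought among 5061 genes that met the same limit. For *Grin2b* they included *Syt4* (Spearman rho 0.43) and *Enpp5* (0.42), and for *Grin1* they were *Pcsk1n* (0.45), *Gaa* (0.38) and *Ptov1* (0.38). *Gria3* was most like *Ebf3* (0.41), *Serpini1* (0.39) and *Adarb2* (0.38), and *Gria2* most like *Ahi1* (0.41), *Negr1* (0.36) and *Sfrs18* (0.35). *Gria1* had *Tmem35* (0.39), *Fam81a* (0.37) and *Mkl2* (0.37), and *Gria4* had the lowest likeness, with *Ank3* (0.27), *Sos1* (0.25) and *Wasl* (0.25). After the mean of each mouse was removed, rho for *Grin2b* with *Syt4* was 0.35 and for *Gria3* with *Ebf3* 0.40. The rank correlation with the total reads of a cell was 0.25 for *Grin2b*, 0.15 for *Grin1* and between -0.11 and 0.054 for the 4 AMPA genes.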

How the data were processed

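The authors deposited raw counts per gene, without normalization. Reads from SMARTer cDNA and Nextera XT libraries were trimmed with Trimmomatic 0.3.2, aligned to GRCm38 with TopHat2 2.1.1, and counted on RefSeq genes with featureCounts 1.5.0-p3, leaving out reads on more than 1 gene. Chambers with doublets had been excluded by eye. The libraries do not mark strand, so antisense reads cannot be told apart; *Grin1os*, which overlaps *Grin1*, had 17 reads against 7931. The ratio of 5-prime to 3-prime coverage was also deposited, for cells without names. The median retained cell had 780466 reads, and 0 columns of the table were left without a sample.

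Counts were summed per mouse and class (at least 3 cells in each) and fitted by quasi-likelihood (edgeR 4.0.16, R 4.3.3; filterByExpr, TMM scaling, Benjamini-Hochberg threshold 0.05), with DESeq2 1.42.0 as an alternative. In the comparisons by status each mouse supplied a sum for either class, yet the main fit held only the class and treated these sums as independent. A block for the mouse was fitted as an alternative only. With it, 29 (*Aldh1a7*), 1 (*Neurod6*) and 10 (*Th*) genes were called, and no member was. Deviations of a mouse's classes from the class means correlated at 0.041–0.206 (*Aldh1a7*), 0.066–0.289 (*Neurod6*) and 0.031–0.169 (*Th*). The mouse is the replicate. Log ratios used 0.5 added reads and exact sign-flip tests (scipy 1.17.1). Exon lengths and sequences are from GENCODE protein-coding transcripts of GRCm38. Alternatives were other scalings, filters, limits for status and depth, and each mouse left out.

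The members, gene lists and tests were chosen with earlier results of these data known. Genes named are the members, genes of the 5 glutamate receptor and partner lists past the threshold (up to 6 per list and comparison, by size of change), the status genes, marker genes used to describe cells, and the 3 genes most like each member (1 of them, and 2 of the sequences, are not reported here); *Gsg1l*, *Cacng3*, *Shisa6*, *Adarb1* and *Grm5* were picked after their values were seen.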

Additional observations from a re-analysis of the deposited data

Results flagged for a closer look

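In 3 of 70 sets of member values by mouse, 1 mouse stood apart from the others by the gap to its nearest neighbor relative to the whole range (Dixon's 95% limit). Chance alone flags about 1 in 20 such sets. *Grin3a* in *Aldh1a7*-positive cells was at 43.4 CPM in mouse 7 against 0–16.1 CPM in the other 6 mice. *Grin3a* in *Neurod6*-negative cells was at 31.0 CPM in mouse 3 against 73.5–85.6 CPM in the other 5. *Grin1* in *Th*-poor cells was at 160 CPM in mouse 5 against 43.9–67.7 CPM in the other 4. Leaving out 1 mouse at a time gave the *Grin3a* fold change by *Aldh1a7* an adjusted p of 0.029–0.20 (edgeR with Benjamini-Hochberg adjustment), and mice 4 and 7 were those whose omission gave a call.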

How the results depend on the processing

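Classes held few cells per mouse, so low genes such as *Grin2c* and *Grin2d* are limited by depth, mouse and run cannot be separated, and sex and age are partly confounded. Values below are gene counts or log2 differences, and for each change the cause was not tested unless the setting itself removes samples. Counts of genes called are totals of separate fits, and their overlap was not counted. By *Aldh1a7* the total was 52, and DESeq2 gave 554, the replicate block 29, cells from 100000 reads 129, positive from 1 read 14 and *Th*-rich cells 14, and leaving out 1 mouse 14–87. By *Neurod6* the total was 7, and RLE scaling gave 4, no filter 3, DESeq2 338, the block 1, thinning 2, cells from 100000 reads 12, positive from 50 reads 3, *Th*-rich cells 1, the comparison with *Aldh1a7*-positive cells 1, and leaving out 1 mouse 1–18. By *Th* the total was 48, and no filter gave 15, DESeq2 about 7.2e+02, the block 10, thinning 21, cells from 100000 reads 84, a limit of 100 CPM 0 (edgeR, 767 at an unadjusted p under 0.05), 3000 CPM 21, leaving out cells with glial markers (chosen after seeing the data) 93, and leaving out 1 mouse 3–72. By sex the total was 5, and DESeq2 gave 318, the 5 mice of 1 C1 machine 0 (edgeR, 565 at an unadjusted p under 0.05) and leaving out 1 mouse 4–5. No ratio passed under any setting run (0), which says little because the smallest possible p of a single ratio cannot pass the adjustment, and the 2 separated neighbors in the order became 6 per coding length and 0–3 without 1 mouse.

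The direction turned for members that were not called. By *Aldh1a7*, *Gria4* was -0.077 without scaling, -0.018 from 100000 reads, -0.32 for positive from 1 read and -0.043 from 50 reads. *Grin2b* was -0.0021 with RLE, -0.14 without scaling, -0.052 without filter, -0.0057 with DESeq2, -0.060 with the block, -0.020 thinned, -0.026 from 100000 reads, -0.19 for positive from 50 reads, -0.093 in *Th*-rich cells and -0.034 without glial markers. By *Neurod6* against *Aldh1a7*-positive cells, *Gria3* was 0.27, *Gria4* 0.22, *Grin1* -0.060, *Grin2d* 0.38 and *Grin3a* 2.96. *Grin3a* by *Neurod6* was also 0.011 from 100000 reads, 0.024 and 0.11 for positive from 1 and 50 reads, and 0.27 in *Th*-rich cells, where *Grin2a* was -0.24 and *Gria4* over *Gria2* 0.026. By *Th*, *Gria3* was 0.12 at 3000 CPM, *Gria4* -0.32 with the block and *Grin2d* -0.44 with at least 1 cell. By sex in *Th*-rich cells, *Gria4* was 0.14, *Grin1* 0.031 (0.0045 without filter), *Grin2a* -0.40 and *Grin2c* -0.24 (-0.21 on 1 C1 machine). In the order, *Gria1* over *Gria3* was -0.089 in *Th*-rich cells, *Gria3* over *Grin2b* -0.50 and *Grin1* over *Grin3a* -0.46 per coding length, *Grin2b* over *Gria4* -0.076 by longest transcript, and *Grin2a* over *Grin2d* -0.60 by the median over cells of a mouse.

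Leaving out 1 mouse at a time turned the sign of *Grin2a* (-0.29 to 0.31) and *Grin2b* (-0.10 to 0.092) by *Aldh1a7*, *Grin2a* (-0.33 to 0.41) and *Grin3a* (-0.41 to 0.21) by *Neurod6*, *Gria4* (-0.23 to 0.68), *Grin2d* (-0.31 to 0.91) and *Grin2d* over *Grin2b* (-0.042 to 1.76) by *Th*, *Gria3* (-0.32 to 0.37), *Grin1* (-0.24 to 0.15), *Grin2a* (-0.50 to 0.82) and *Grin2c* (-0.23 to 5.52) by sex, and *Grin2b* over *Gria4* (-0.028 to 0.27). *Grin3a* kept its sign by *Aldh1a7* (-3.38 to -2.42) and by *Th* (1.83 to 2.25). Beside the counts, the block ended the calls of *Grin3a* by *Th* and of *Grm8* by *Aldh1a7*. These were the only calls among the members and the glutamate receptor and partner lists.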
